A study of Mus musculus with 3 samples.

Results

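Imprinted genes are transcribed mainly from the copy inherited from 1 parent. The choice is written in the germ line as DNA methylation of an imprinting control region, is kept after fertilization by factors such as ZFP57 and TRIM28, and often governs a whole cluster of neighbouring genes, in which a long noncoding RNA from 1 parental copy is paired with protein-coding genes from the other. Many imprinted genes act on growth of the embryo and placenta: paternally expressed genes such as Igf2 tend to promote it, and maternally expressed genes such as Igf2r, H19, Cdkn1c and Grb10 tend to restrain it. Their transcripts were followed here across the germ layers of the gastrulating mouse embryo. The set was a list of 44 imprinted genes chosen by symbol, and all 44 were found among 17633 genes with reads in any library. By general knowledge 21 of them are expressed from the maternal copy, 22 from the paternal copy, and Gnas has transcripts of both kinds. For 14 of the 44, imprinting is known mainly in certain tissues such as placenta or brain. They fall into 10 clusters and 8 genes treated singly. The parental copies were not separated in the measured values, so every value below is the sum over both, and the parental assignment is background.

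The embryos were of the ICR strain at E7.5, when the primitive streak is producing mesoderm and definitive endoderm from the epiblast. Each of the 3 groups, endoderm, mesoderm and epiblast, was 1 RNA-seq library made from tissue pooled over many embryos, and no treatment or altered allele is named. The embryonic region was cut away from the extra-embryonic region and the layers were separated with pancreatin and trypsin, and the epiblast sample comprised neuroectoderm together with primitive streak. There is therefore no biological replicate of any layer, and each difference below is between 2 libraries. In such bulk samples, fewer cells of a type and less RNA per cell cannot be told apart.

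The libraries held 41.7 M reads on genes in the endoderm, 40.8 M in the mesoderm and 42.7 M in the epiblast, and listed 16201 to 16430 genes. The level of a gene is given as RPKM, its reads scaled by gene length and by library size. All 3 endoderm markers (Sox17, Foxa2, Cer1), all 4 mesoderm markers (Foxf1, Kdr, Mesp1, Tbx6) and all 3 epiblast markers (Sox2, Pou5f1, Utf1) had their highest RPKM in the library of that name. The endoderm library also held visceral endoderm transcripts: all 8 markers of that tissue, which supplies nutrients to the embryo (Afp, Ttr, Apoa1, Apob, Amn, Cubn, Rhox5, Trf), were highest there, with a summed RPKM of 5778 against 7.85 in mesoderm and 5.45 in epiblast. Every value called high in endoderm below thus stands beside visceral endoderm RNA, and its part in the result was not tested. Of 8 markers of trophoblast and extra-embryonic ectoderm, Tpbpa, Prl3d1 and Prl2c2 had no read in any library, and the summed RPKM was 45.7 in endoderm against 27.4 in mesoderm and 38.1 in epiblast. Within that sum the markers differed: Cdx2, also a gene of the primitive streak, had 18.4, 20.9 and 37.1 RPKM in endoderm, mesoderm and epiblast, whereas Esx1 had 7.11, 0.061 and 0.13 and Plac1 19.9, 6.25 and 0.57. Esx1 and Plac1 were called higher in endoderm than in both other libraries, and Plac1 also in mesoderm over epiblast, the order of several imprinted genes below, and their part in those results was not tested either. Markers of primitive erythroid cells summed to at most 4.44 RPKM and those of decidua to at most 1.78.

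As a group the imprinted genes took a larger share of the reads in endoderm and mesoderm than in epiblast. The 44 genes held 1.81% of the reads on genes in endoderm (95% Wilson interval 1.81 to 1.82), 1.15% in mesoderm (1.14 to 1.15) and 0.384% in epiblast (0.382 to 0.386). H19 alone made up 0.931% of the endoderm reads. Without H19 the other 43 genes held 0.882% in the endoderm, 0.913% in the mesoderm and 0.370% in the epiblast, so that endoderm no longer led while epiblast still had the lowest share. All intervals cover counting error only and say nothing of the spread between embryos. In level, 26 of the 44 genes exceeded an RPKM of 5 in at least 1 library, 13 peaked between 1 and 5, and 5 stayed below 1. The plot of RPKM by cluster shows this range, from H19 at 3561 RPKM down to Snrpn at 0 to 3 reads.

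**Figure D1:**
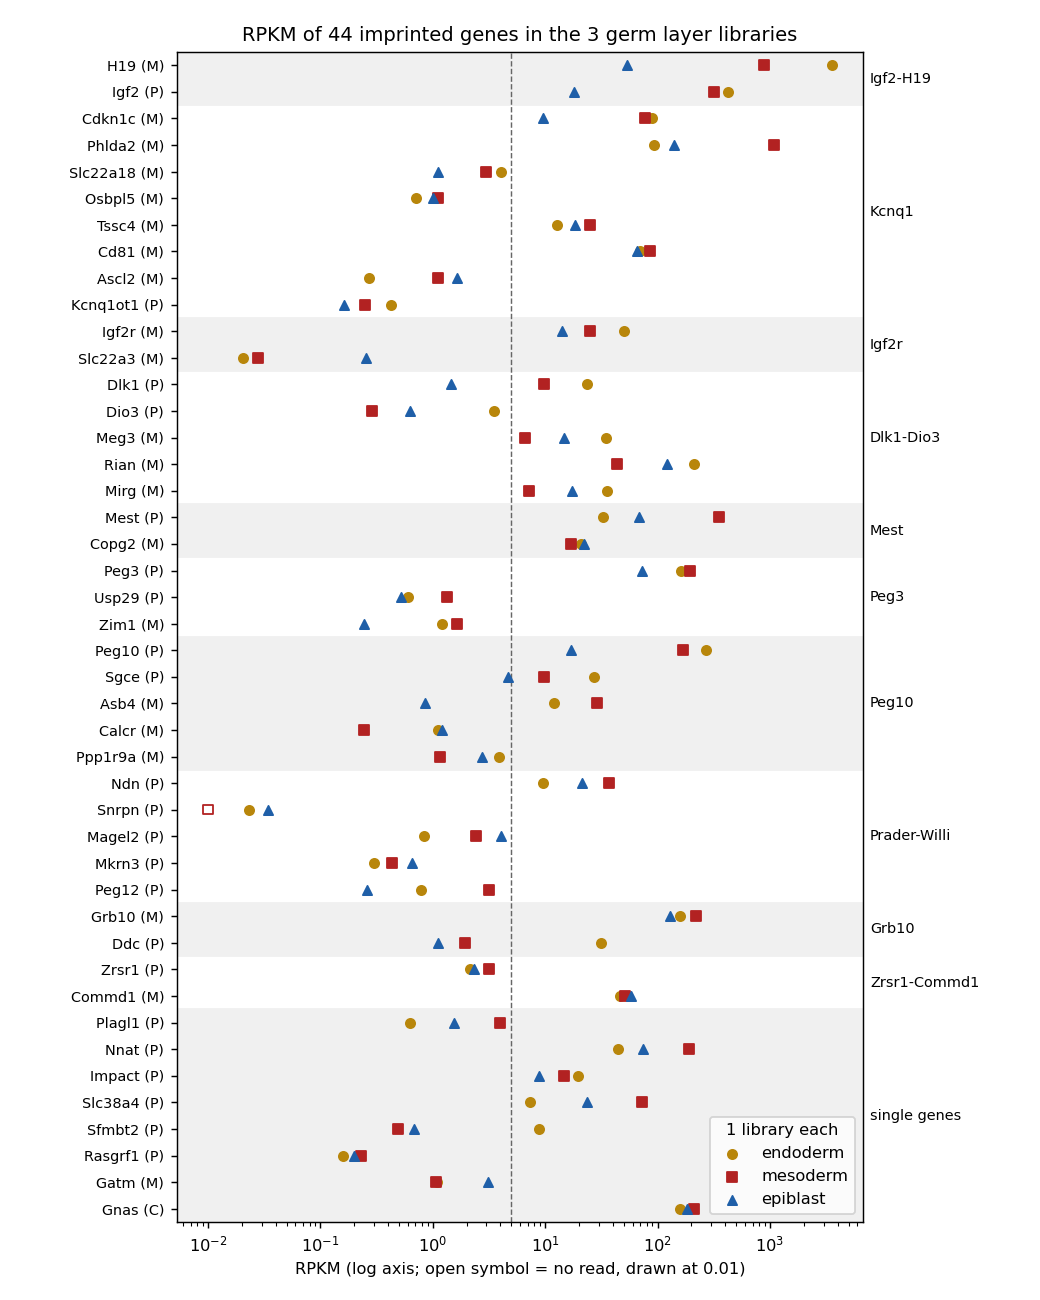
RPKM (log axis) of each of the 44 imprinted genes in the endoderm (circles), mesoderm (squares) and epiblast (triangles) library, 1 library each, grouped by cluster; M, P and C after a symbol mark maternal, paternal and complex expression by general knowledge, and the dashed line is RPKM 5. H19 spans 53.6 to 3561 RPKM, whereas Commd1 (46.6 to 58.0), Cd81 (65.3 to 85.3) and Gnas (159 to 212) lie close together in all 3 libraries.

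A gene was called different between 2 libraries by the criteria the study used: RPKM over 5 in 1 or both, a fold over 2, and an adjusted p under 0.001 in the Audic-Claverie exact test, which compares the read counts of 2 libraries and not of 2 tissues. Of the 26 genes that passed the RPKM criterion in some pair, 20 were called in at least 1 pair, where 31.5% of all 9135 genes passing it were. In the comparison of endoderm with mesoderm, 9 of 26 were higher in endoderm (background 14.4% of genes) and 6 were higher in mesoderm (background 8.56%). Endoderm against epiblast gave 14 of 26 higher in endoderm (background 15.7%) and 3 higher in epiblast (background 8.94%). Between mesoderm and epiblast, 12 of 24 were higher in mesoderm (background 5.3%) and 3 higher in epiblast (background 5.02%). When edgeR's exact test was run with the biological coefficient of variation set to 0.4 (adjusted p under 0.05, same RPKM and fold criteria), these counts fell to 5 of 15 calls, 9 of 17 and 6 of 15.

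Against both other libraries at once, 8 genes were highest in endoderm (H19, Igf2r, Dlk1, Meg3, Mirg, Sgce, Ddc and Sfmbt2; background 11.2%), 5 were highest in mesoderm (Phlda2, Mest, Asb4, Nnat and Slc38a4; background 2.66%) and 0 were highest in epiblast (background 2.26%). Conversely, 8 were lowest in epiblast (H19, Igf2, Cdkn1c, Dlk1, Peg3, Peg10, Sgce and Asb4; background 1.77%), 3 were lowest in endoderm (Mest, Ndn and Slc38a4; background 4.33%) and 3 were lowest in mesoderm (Meg3, Rian and Mirg; background 1.85%). Many of these calls ended in edgeR's exact test with the coefficient of variation set to 0.4. Endoderm over mesoderm was lost for H19, Igf2r, Dlk1, Meg3, Rian, Mirg and Sgce. Mesoderm over endoderm was lost for Asb4, Ndn and Nnat. Mesoderm over epiblast was lost for Dlk1, Mest, Peg3, Sgce, Nnat and Slc38a4, and epiblast over mesoderm for Meg3, Rian and Mirg. The plot of log2 ratios gives all pairs side by side. The comparisons share libraries, so a high value in 1 library enters both of its pairs.

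**Figure D2:**
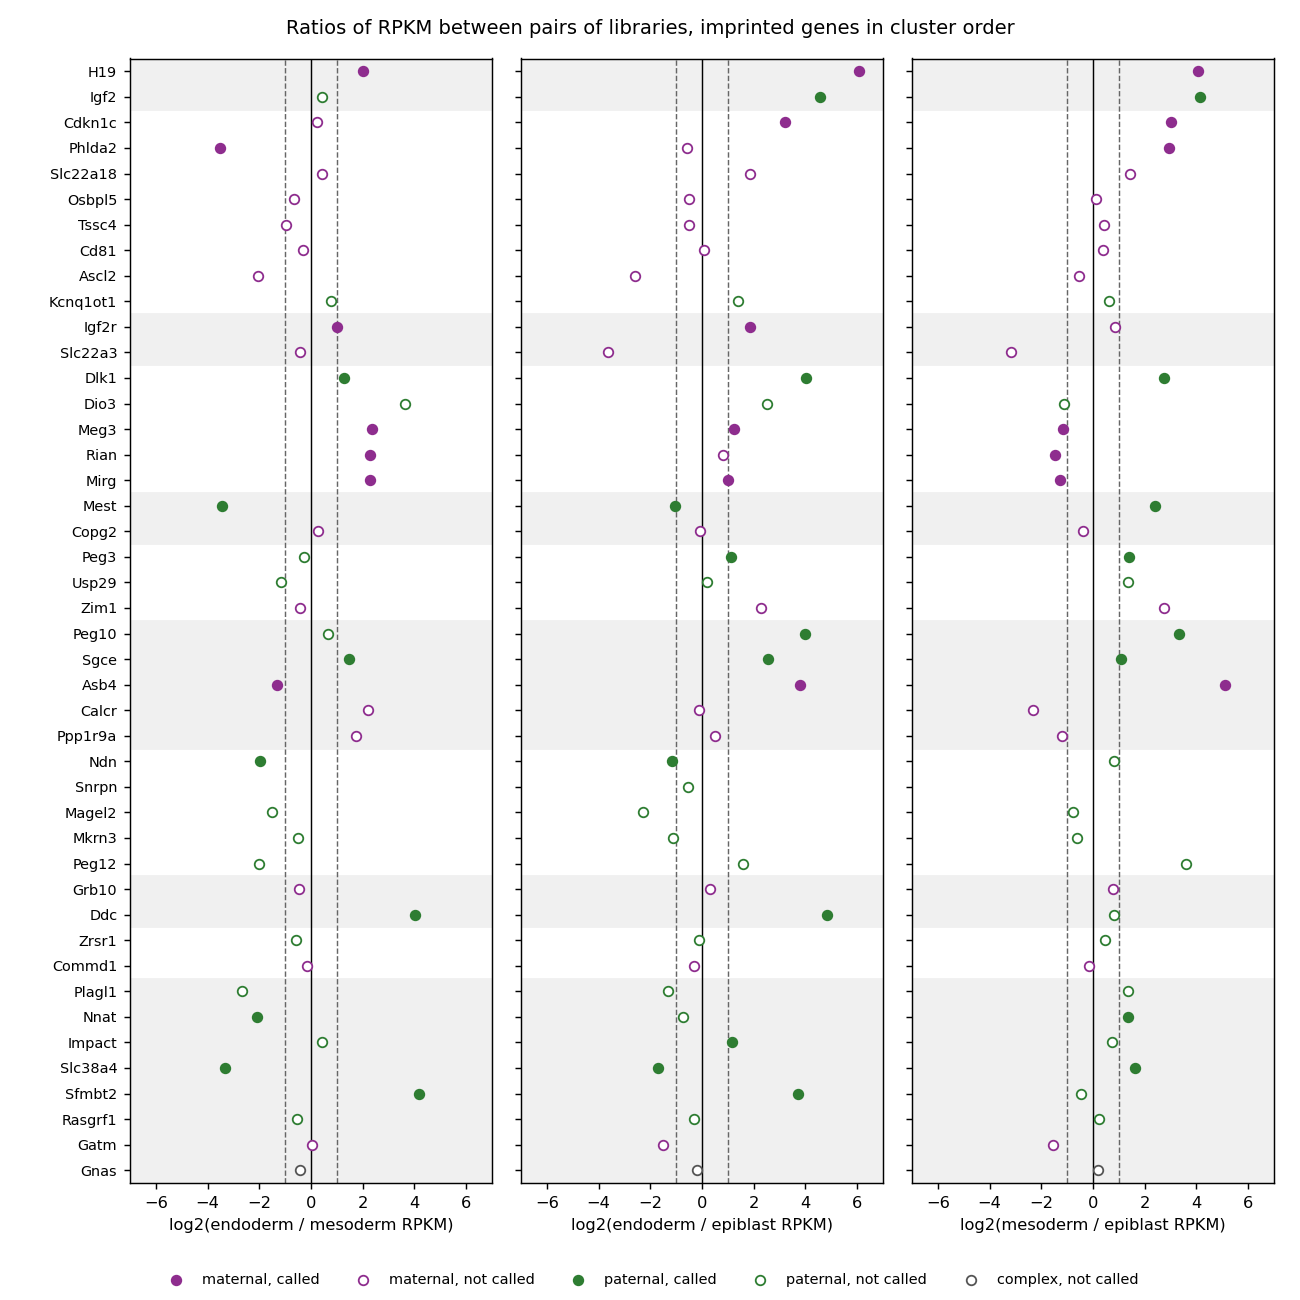
Log2 ratio of RPKM between each pair of libraries for every imprinted gene with reads in both, in cluster order. Filled symbols met the criteria, open symbols did not, colour marks the parental copy, and dashed lines mark a 2-fold difference; in the panels against epiblast most filled symbols lie to the right, up to 6.05 for H19.

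The Igf2-H19 cluster on chromosome 7 held the highest RPKM of the set in the endoderm library, that of H19. H19, a maternally expressed noncoding RNA that is spliced but not translated (GRCm38 chr7:142575529-142578143, minus strand), had 387866 reads (3561 RPKM) in endoderm, 94953 (889 RPKM) in mesoderm and 5987 (53.6 RPKM) in epiblast. It was the gene with the most reads in endoderm (rank 1), and ranked 24 by reads in mesoderm and 1483 in epiblast. The level fell from endoderm to mesoderm by a factor of 4.01 (95% counting interval 3.98 to 4.03) and was 66.4 times higher in endoderm than in epiblast (64.7 to 68.1). Igf2, the paternally expressed growth factor from the same cluster (chr7:142650766-142666816, minus strand), had 71392 reads (424 RPKM) in endoderm, 51890 (315 RPKM) in mesoderm and 3107 (18.0 RPKM) in epiblast. Both genes thus ran in the same order of layers, but endoderm exceeded mesoderm only 1.35-fold for Igf2 (1.33 to 1.36), below the 2-fold criterion, while its level exceeded epiblast 23.6-fold in endoderm and 17.5-fold in mesoderm. The quotient of H19 to Igf2 RPKM was 8.39 in endoderm against 2.83 in mesoderm and 2.98 in epiblast. The 2 genes use common enhancers on opposite parental copies, with CTCF at the control region between them deciding which gene is reached. Exons of Igf2 overlap an antisense transcript, Igf2as, listed with 6666 reads in the endoderm, 1451 in the mesoderm and 108 in the epiblast, and as no strand information was given the reads of the overlap cannot be told apart.

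H19 is also the precursor of a microRNA, whose 2 mature products from RefSeq (GRCm38.p6) are shown because they name what the abundant transcript encodes. Capitals mark the seed, bases 2 to 8, which pairs with target messengers. The hairpin lies inside H19, on chr7:142577112-142577133 for the 5′ product and chr7:142577078-142577099 for the 3′ product. MicroRNAs themselves were not measured, so the H19 reads above say nothing of how much was processed.
mmu-miR-675-5p: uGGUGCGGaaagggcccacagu
mmu-miR-675-3p: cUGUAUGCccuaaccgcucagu

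Igf2r, on chromosome 17 (chr17:12682406-12769664, minus strand), is the maternally expressed receptor that carries IGF2 to the lysosome. It had 18838 reads (50.5 RPKM) in endoderm, 9168 (25.1 RPKM) in mesoderm and 5378 (14.1 RPKM) in epiblast. The order was that of Igf2, with a smaller span: the endoderm level was 3.59 times that of epiblast and 2.02 times that of mesoderm (1.97 to 2.07), the latter just over the criterion, and the call against mesoderm was lost under upper-quartile scaling (log2 ratio 0.94) and with 1 added to each RPKM (0.98). The quotient of Igf2 to Igf2r RPKM was 8.40 in endoderm against 12.5 in mesoderm and 1.28 in epiblast. Slc22a3, a cation transporter of the same cluster imprinted mainly in placenta, had 3 reads in the endoderm, 4 in the mesoderm and 38 in the epiblast, a ratio of 12.4 of epiblast to endoderm with a wide counting interval (3.92 to 62.6).

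In the Kcnq1 cluster, next to Igf2-H19 on chromosome 7, the 8 genes did not share a profile. Cdkn1c, which encodes the cyclin-dependent kinase inhibitor p57, had 7243 reads (89.1 RPKM) in endoderm, 6114 (76.7 RPKM) in mesoderm and 800 (9.60 RPKM) in epiblast, an excess over epiblast of 9.28-fold and 7.99-fold. Phlda2, which encodes a pleckstrin homology protein that limits placental growth, had 2880 reads (93.8 RPKM) in endoderm, 32415 (1077 RPKM) in mesoderm and 4381 (139 RPKM) in epiblast. Its mesoderm level was 11.5 times that of endoderm (11.0 to 11.9) and 7.74 times that of epiblast (7.49 to 7.98). Although both are maternally expressed neighbours, the quotient of Phlda2 to Cdkn1c RPKM was 1.05 in endoderm against 14.0 in mesoderm and 14.5 in epiblast. Tssc4, a splicing factor gene, had 12.8, 24.8 and 18.3 RPKM in endoderm, mesoderm and epiblast, and Cd81, a tetraspanin, 69.0, 85.3 and 65.3 RPKM. Neither met the criteria in any pair, although Tssc4 passed 2-fold between mesoderm and endoderm under upper-quartile scaling (log2 endoderm to mesoderm -1.02), and exons of both overlap those of other genes. Slc22a18, Osbpl5 and Ascl2 peaked between 1.11 and 4.02 RPKM. Ascl2, a transcription factor gene needed for the placental spongiotrophoblast, had 18 reads in the endoderm, 74 in the mesoderm and 112 in the epiblast.

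Kcnq1ot1 is the paternally expressed noncoding RNA that silences this cluster in cis. It had 1486 reads in endoderm against 849 in mesoderm and 581 in epiblast. Because the annotated transcript is 83437 bases long, these correspond to 0.43, 0.25 and 0.16 RPKM, and 51.4%, 37.1% and 33.3% of its length was covered. By reads it ranked 5478 in endoderm, and by RPKM 12353. Its exons overlap Kcnq1. The order of the libraries was that of Cdkn1c and not that of Phlda2.

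All 5 genes of the Dlk1-Dio3 cluster on chromosome 12 were highest in endoderm, but they fell into separate profiles for the lower layers. The maternally expressed noncoding RNAs moved together. Meg3 (chr12:109541001-109571726, plus strand) had 16465 reads (34.6 RPKM) in endoderm, 3112 (6.66 RPKM) in mesoderm and 7199 (14.7 RPKM) in epiblast, so that endoderm was high and mesoderm low. Rian (chr12:109603940-109661716), a host of small nucleolar RNAs, had in the same order 31723 reads (212 RPKM), 6421 (43.9 RPKM) and 18679 (122 RPKM). Mirg (chr12:109729764-109749460), a host of microRNAs, had 1932 reads (35.3 RPKM), 388 (7.22 RPKM) and 974 (17.3 RPKM). All 3 were lowest in mesoderm, which lay below endoderm 5.19-fold, 4.85-fold and 4.88-fold and below epiblast 2.21-fold, 2.78-fold and 2.40-fold. Endoderm exceeded epiblast 2.34-fold for Meg3, 2.03-fold for Mirg and 1.74-fold for Rian, the last not called. The call for Mirg ended under upper-quartile scaling (log2 ratio 0.89) and with 1 added to each RPKM (0.98).

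Across libraries the proportions of the noncoding RNAs varied less than their levels, by 1.35-fold for Rian to Meg3 and 1.15-fold for Mirg to Meg3. The quotient of Rian to Meg3 RPKM was 6.15 in the endoderm, 6.59 in the mesoderm and 8.28 in the epiblast, and that of Mirg to Meg3 was 1.02, 1.08 and 1.18. From the start of Meg3 to the end of Mirg, RefSeq places 54 microRNA hairpins, 14 of them inside Mirg and 3 inside Rian, none of which was measured. Of the paternally expressed genes of the cluster, Dlk1 behaved otherwise. Dlk1 (chr12:109452823-109463336), which encodes a transmembrane ligand related to Delta, had 4613 reads (23.7 RPKM) in endoderm, 1860 (9.73 RPKM) in mesoderm and 289 (1.45 RPKM) in epiblast. Its order of libraries was therefore that of Igf2, with 16.4-fold more in endoderm than in epiblast (14.5 to 18.5), and the quotient of Dlk1 to Meg3 RPKM was 0.685, 1.46 and 0.0981, a 14.9-fold span. Dio3, which inactivates thyroid hormone, had 275 reads in endoderm against 22 in mesoderm and 50 in epiblast, or 3.53, 0.29 and 0.63 RPKM, and so did not reach the RPKM criterion. Its order of libraries was that of the noncoding RNAs.

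**Figure D3:**
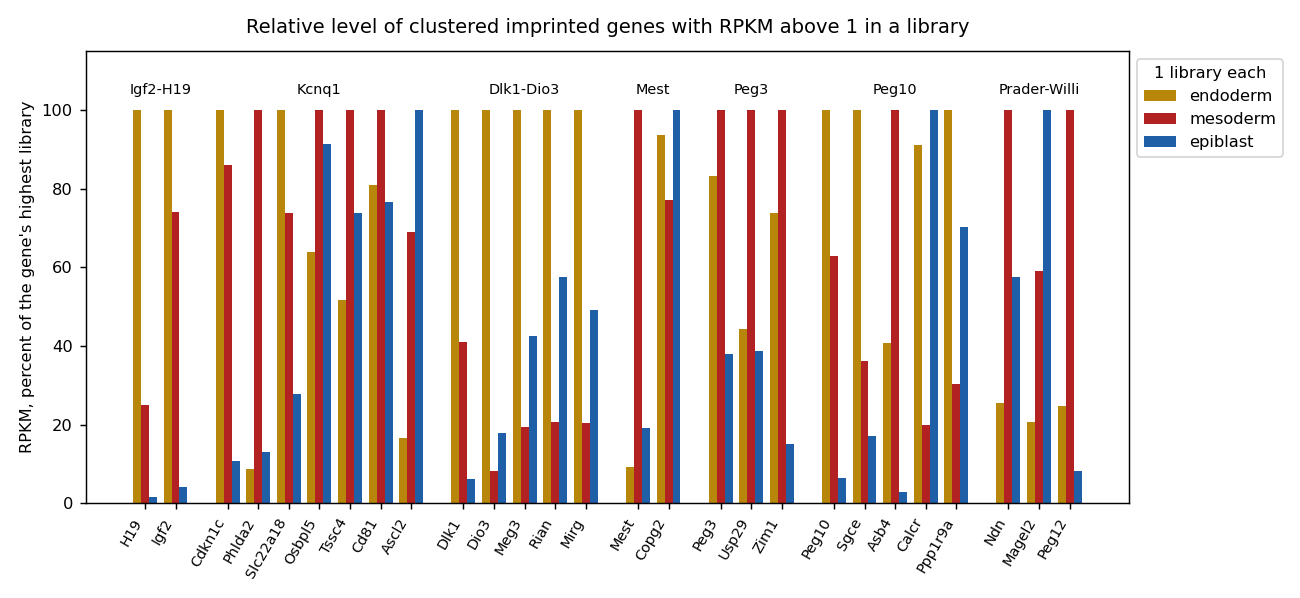
RPKM of each gene as a percentage of its highest library, for genes of 7 clusters with RPKM above 1 in a library; bars are endoderm, mesoderm and epiblast, 1 library each, from 0. Meg3, Rian and Mirg share a profile with mesoderm at 19.3% to 20.6% of endoderm, whereas Dlk1 of the same cluster has epiblast lowest at 6.11%, and Mest differs from its antisense neighbour Copg2.

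The Mest cluster on chromosome 6 held a gene that varied greatly and an overlapping neighbour that varied little. Mest, a paternally expressed alpha/beta hydrolase gene named for mesoderm-specific transcript (chr6:30723547-30748465, plus strand), had 3649 reads (32.7 RPKM) in endoderm, 38645 (353 RPKM) in mesoderm and 7760 (67.8 RPKM) in epiblast. Mesoderm exceeded endoderm 10.8-fold (10.4 to 11.2) and epiblast 5.21-fold (5.08 to 5.34). Epiblast exceeded endoderm 2.07-fold, a call that ended under 3 of the 4 other scalings (log2 endoderm to epiblast -0.94 to -0.96). Copg2, which encodes a coat protein subunit of transport vesicles and is transcribed from the other strand with overlapping exons, had 2754, 2229 and 3017 reads, or 20.7, 17.1 and 22.1 RPKM, and was not called in any pair. The quotient of Mest to Copg2 RPKM was 1.58 in the endoderm, 20.7 in the mesoderm and 3.07 in the epiblast, and the Copg2 count did not move with that of Mest.

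In the Peg10 cluster, also on chromosome 6, both genes that start at the shared control region were highest in endoderm and lowest in epiblast. Peg10, a retrotransposon-derived gene needed for the placenta (chr6:4747306-4760517, plus strand), had 75077 reads (270 RPKM) in endoderm, 46331 (170 RPKM) in mesoderm and 4850 (17.0 RPKM) in epiblast. Sgce, which encodes epsilon-sarcoglycan and runs the other way (chr6:4674350-4747207, minus strand), had 2050 reads (27.1 RPKM), 728 (9.80 RPKM) and 360 (4.63 RPKM). Peg10 exceeded epiblast 15.9-fold in endoderm and 9.99-fold in mesoderm, whereas Sgce did so 5.84-fold and 2.11-fold, and the quotient of Peg10 to Sgce was 9.98, 17.3 and 3.67. The call for Sgce between mesoderm and epiblast ended with 1 added to each RPKM (log2 ratio 0.94). Asb4, a maternally expressed gene for an adaptor of a ubiquitin ligase, was highest in mesoderm instead, with 1625 reads (11.9 RPKM) in endoderm, 3914 (29.2 RPKM) in mesoderm and 120 (0.86 RPKM) in epiblast. Its 34.1-fold excess of mesoderm over epiblast (28.4 to 41.2) was the widest of the set between those libraries. Calcr and Ppp1r9a peaked at 1.22 and 3.86 RPKM and were both lowest in mesoderm.

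The Peg3 cluster, at the proximal end of chromosome 7, was highest in mesoderm for all 3 genes. Peg3, a paternally expressed zinc finger gene, had 44424 reads (161 RPKM) in endoderm, 52379 (194 RPKM) in mesoderm and 20735 (73.3 RPKM) in epiblast. It was lowest in epiblast by 2.20-fold against endoderm and 2.64-fold against mesoderm. Usp29 and Zim1 followed at low level, with peaks of 1.35 and 1.63 RPKM.

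Genes of the Prader-Willi cluster, also on chromosome 7, were low apart from Ndn. Ndn, which encodes the MAGE family protein necdin, had 653 reads (9.49 RPKM) in endoderm, 2503 (37.1 RPKM) in mesoderm and 1506 (21.4 RPKM) in epiblast. It was lowest in endoderm, 3.91-fold under mesoderm and 2.25-fold under epiblast. Magel2, Mkrn3 and Peg12 peaked between 0.66 and 4.06 RPKM, Magel2 and Mkrn3 in epiblast and Peg12 in mesoderm. Snrpn was listed with 2 reads in endoderm against 0 in mesoderm and 3 in epiblast. Its exons are shared with Snurf, so how reads were divided between them is uncertain and its level is not interpreted here.

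The Grb10 cluster on chromosome 11 held a gene that varied little and a neighbour that varied greatly. Grb10, an adaptor that dampens insulin and IGF receptor signals, had 158, 218 and 128 RPKM in endoderm, mesoderm and epiblast, with no call. Ddc, which encodes the decarboxylase of dopamine and serotonin synthesis and is imprinted mainly in heart, had 2657 reads (31.6 RPKM) in endoderm, 160 (1.94 RPKM) in mesoderm and 95 (1.10 RPKM) in epiblast, an excess of 16.3-fold and 28.7-fold. Of the pair Zrsr1 and Commd1, which overlap on the same chromosome, Commd1 had 46.6, 51.6 and 58.0 RPKM and no call, and Zrsr1 peaked at 3.19 RPKM.

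Among the genes treated singly, some were the reverse of others. Nnat, which encodes the membrane proteolipid neuronatin, had 2271 reads (44.6 RPKM) in endoderm, 9480 (190 RPKM) in mesoderm and 3856 (73.8 RPKM) in epiblast. Slc38a4, an amino acid transporter of the system A family, had 1194 reads (7.29 RPKM), 11687 (72.8 RPKM) and 3975 (23.7 RPKM). Mesoderm was thus the high library of both, 4.26-fold and 9.98-fold over endoderm and 2.57-fold and 3.07-fold over epiblast. Sfmbt2, a Polycomb gene imprinted mainly in extra-embryonic tissue, was high in endoderm, with 2882 reads (8.81 RPKM) against 158 (0.49 RPKM) in mesoderm and 227 (0.68 RPKM) in epiblast. Its endoderm level was 17.9 times that of mesoderm (15.2 to 21.1). Impact, which encodes an inhibitor of the GCN2 kinase, had 2808 reads (19.6 RPKM), 2067 (14.7 RPKM) and 1287 (8.78 RPKM), and was called between endoderm and epiblast (2.24-fold). Plagl1, Gatm and Rasgrf1 peaked at 3.97, 3.10 and 0.23 RPKM.

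Gnas, whose alternative first exons are expressed from different parental copies, had 24968 reads (159 RPKM) in endoderm, 32737 (212 RPKM) in mesoderm and 29567 (183 RPKM) in epiblast, with no call. The layers differed instead in how much of the gene was covered: 97.7% of its 3775 bases in mesoderm, but 78.8% in each of the other libraries. The gap of 18.95 points between mesoderm and endoderm amounts to about 715 bases. Of 517 genes with at least 10000 reads in each library, 9 (1.74%) had a gap above 15 points, and the median gap was 0.62 points. Which bases were missing cannot be read from a single percentage, and no first exon was counted separately. In the plot of coverage against reads, Dlk1 and Kcnq1ot1 also lie below other genes of like read number. So do Usp29 (25.4% to 54.2%) and Zrsr1 (56.4% to 65.4%).

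**Figure D4:**
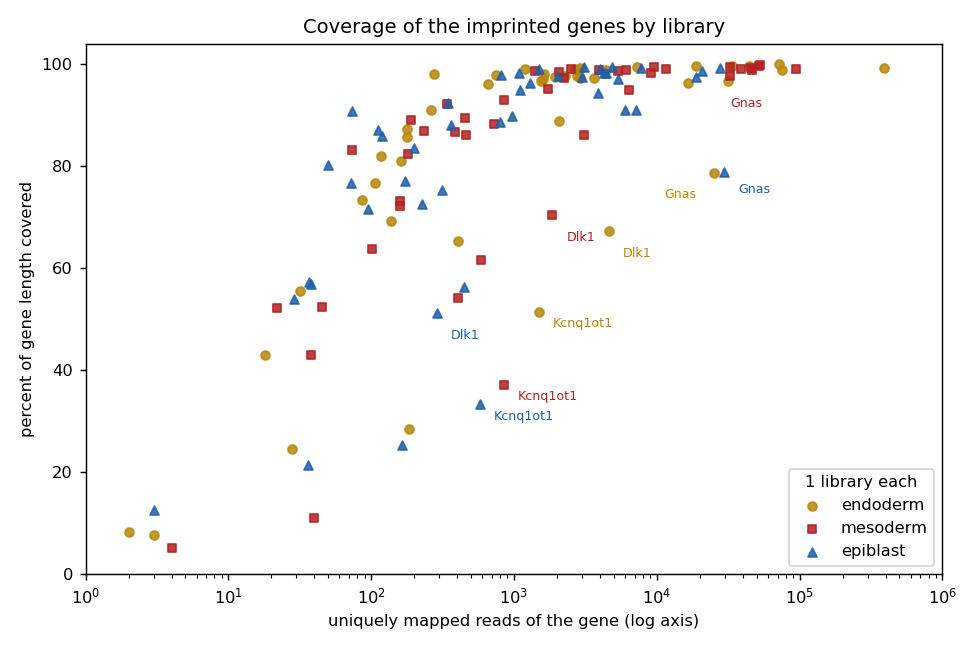
Percent of gene length covered by reads against the number of uniquely mapped reads (log axis), 1 point per imprinted gene and library with a read. Coverage rises with reads and levels off near full length for most genes. Gnas (78.8% in endoderm and epiblast, 97.7% in mesoderm), Dlk1 (51.1% to 70.4%) and Kcnq1ot1 (33.3% to 51.4%) lie lower, as do Usp29 and Zrsr1.

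Grouped by parental copy, genes of both kinds were spread over endoderm and mesoderm, and few paternally expressed genes peaked in epiblast. Among the 43 genes with reads in all libraries, 17 were highest in the endoderm, 18 in the mesoderm and 8 in the epiblast (18.6%), against 35.2%, 31.5% and 33.3% of 15088 genes with reads in all 3. Of 20 maternally expressed genes with RPKM above 1 in a library, 8 peaked in endoderm against 7 in mesoderm and 5 in epiblast (25%). For 18 paternally expressed genes these numbers were 8, 9 and 1 (5.56%). Of all 12232 genes above RPKM 1, 32.9% peaked in epiblast. Leaving out genes whose imprinting is known mainly in certain tissues, 0 of 11 maternally and 1 of 16 paternally expressed genes peaked in epiblast. The exception was Magel2, at 4.06 RPKM. The median log2 ratio of mesoderm to epiblast was 0.26 for the 20 maternally and 1.36 for the 18 paternally expressed genes, where all 12232 genes above RPKM 1 had 0.01. For endoderm to epiblast the medians were 0.41 and 1.15 against -0.10. For endoderm to mesoderm they were 0.12 and -0.42 against -0.11, and the paternal value turned to 0.42 when only genes above RPKM 5 were taken. Over all 21 maternally expressed genes, whatever their level, the medians were 0.027, 0.30 and 0.13 for endoderm to mesoderm, endoderm to epiblast and mesoderm to epiblast. Those of the paternally expressed genes with reads in both libraries were -0.52, 0.66 and 1.08. The difference between maternally and paternally expressed genes depended on the genes admitted. Without genes imprinted mainly in certain tissues, the 11 maternally and 16 paternally expressed genes had 1.42 and 1.37 for mesoderm to epiblast. Their medians for endoderm to epiblast were 1.84 and 0.66, the reverse of the order above.

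Promoters were searched because several neighbours moved together and because ZFP57, a zinc finger protein that keeps methylation at imprinting control regions, binds the hexamer TGCCGC when methylated. RefSeq windows of 250 bases before each annotated start (GRCm38.p6) were matched by symbol for 39 of the 44 genes, and the names without a window were H19, Cdkn1c, Peg10, Sgce and Impact. The hexamer occurred on either strand (TGCCGC or GCGGCA) in 8 of 62 windows of imprinted genes and in 8.68% of all 32851 windows. The windows with a match belonged to Mest, Meg3, Copg2, Zim1, Osbpl5, Plagl1 and Calcr, and the median number of CpG dinucleotides was 10 per window for imprinted genes and 6 for all. Below are a window with 2 matches, a window with 1 and a window with 0, from genes of contrasting profile and chosen after the matches were seen. Mest (highest in mesoderm) is at chr6:30737800-30738049 on the plus strand with 14 CpG, Meg3 (lowest in mesoderm) at chr12:109540746-109540995 on the plus strand with 10, and Igf2r (highest in endoderm) at chr17:12769707-12769956 on the minus strand with 27. Capitals mark the hexamer, and a match in these letters is a description and not a bound site.
Mest: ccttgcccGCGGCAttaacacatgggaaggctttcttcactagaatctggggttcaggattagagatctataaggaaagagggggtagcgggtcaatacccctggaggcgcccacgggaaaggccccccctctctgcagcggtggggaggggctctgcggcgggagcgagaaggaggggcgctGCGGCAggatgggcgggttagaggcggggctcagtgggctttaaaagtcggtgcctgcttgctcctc
Meg3: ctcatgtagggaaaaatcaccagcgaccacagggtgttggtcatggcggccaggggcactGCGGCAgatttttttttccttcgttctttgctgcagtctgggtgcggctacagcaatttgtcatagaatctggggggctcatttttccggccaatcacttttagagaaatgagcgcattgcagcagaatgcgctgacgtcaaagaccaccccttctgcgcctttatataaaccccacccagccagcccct
Igf2r: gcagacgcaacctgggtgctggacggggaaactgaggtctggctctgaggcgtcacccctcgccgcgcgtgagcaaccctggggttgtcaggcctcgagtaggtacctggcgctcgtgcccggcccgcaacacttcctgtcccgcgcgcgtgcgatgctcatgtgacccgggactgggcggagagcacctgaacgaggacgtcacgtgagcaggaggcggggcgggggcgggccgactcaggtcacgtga

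Of 11 genes for factors that keep imprints after fertilization, 10 exceeded RPKM 5 in a library and 2 were called in at least 1 pair, where 31.5% of all genes above RPKM 5 were. Trim28, the corepressor recruited by ZFP57, had 237 RPKM in the endoderm, 459 in the mesoderm and 570 in the epiblast, and was called only between epiblast and endoderm (2.41-fold). Zfp57 itself had 5.93, 13.8 and 6.61 RPKM and was called 2.33-fold above endoderm and 2.09-fold above epiblast in mesoderm. The other 9 met the criteria in 0 pairs.

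Of 12 further genes of the IGF pathway, in which Igf2, Igf2r and Grb10 act, 10 exceeded RPKM 5 and 5 were called in at least 1 pair (background 31.5%). Igf1r, the receptor that transmits the IGF2 signal, had 3.80 RPKM in endoderm against 11.0 in mesoderm and 12.2 in epiblast, and so was lowest in the library where Igf2 was highest, by 2.90-fold and 3.22-fold. Igfbp5, a secreted binding protein, had 41.9, 6.31 and 5.98 RPKM, and Igfbp4 126, 135 and 38.7. Igfbp3, with 9.0, 4.99 and 22.2 RPKM, and Igfbp2, with 57.4, 45.4 and 114 RPKM, were highest in epiblast. The RNA-binding proteins Igf2bp1, Igf2bp2 and Igf2bp3, which bind Igf2 and H19 transcripts, were between 65.3 and 121 RPKM in all libraries with no call, and were picked out after their values were seen.

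Another 38 imprinted genes outside the list were looked up as well. Reads were listed for 36 of them, 13 exceeded RPKM 5 and 7 were called in at least 1 pair (background 31.5%). Of the 13, 5 were higher in endoderm than in both other layers (background 11.2%). Among them were Pon2 (21.6, 4.27 and 2.54 RPKM in endoderm, mesoderm and epiblast) and Gab1 (34.2, 11.6 and 4.61). The others were Jade1 (23.8, 6.81 and 9.41), Smoc1 (29.1, 11.1 and 4.55) and Inpp5f (29.5, 12.6 and 9.96). Trappc9 (6.99, 2.81 and 4.27) was called only in endoderm over mesoderm. Zdbf2 was lower in endoderm than in both others (2.06, 5.07 and 5.87).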

How the data were processed

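RNA from 1 library of each germ layer was sequenced by the authors (Illumina HiSeq, paired ends). For each gene with a read in a library the authors deposited a count of uniquely mapped reads (not normalized), its length, the percent of that length covered, and its RPKM. The deposited RPKM equals the count over length and over the total of counted reads (largest relative difference 2.03e-07). TopHat, mm10 and mm9 appear in the submitters' processing notes, and the study's methods give TopHat and GRCm38 for its splicing analysis. The aligner, counting program and annotation behind the gene tables are not given in the sources used here. With no dispersion to estimate, the quasi-likelihood test of edgeR could not be fitted, and the study's own criteria were used instead. Counts of 2 libraries were compared with the Audic-Claverie exact test (two-sided), adjusted by Benjamini-Hochberg over genes with a read in either.

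The imprinted genes and the other lists were chosen with earlier results of these data known. By rule, genes called in a pair are given with reads and RPKM, uncalled genes above RPKM 5 with RPKM, and the remaining genes by range and count. Copg2 and Gnas, uncalled and above RPKM 5, are given with reads as well. Remaining genes given with separate values (Kcnq1ot1, Slc22a3, Dio3, Ascl2, Snrpn, Magel2 and single peak values) were chosen after their values were seen. Genes absent from a library's table were set to 0 reads, which allows up to 3. Fold intervals are exact 95% binomial, those of shares are Wilson, and both cover counting error only. Coordinates and exon overlaps came from GENCODE M21 (GRCm38), which held all 44 symbols, and exons of 14 overlap another gene, whose reads may be shared. Alternatives were other RPKM minimums (1, 10, none), folds (1.5, 4), scalings of the libraries (RPKM total, median of ratios, upper quartile, TMM), RPKM plus 1, no FDR criterion, and edgeR's exact test with an assumed coefficient of variation of 0.2 or 0.4. Software was edgeR 4.0.16 in R 4.3.3, and SciPy 1.17.1, pandas 2.3.3, numpy 2.4.6 and matplotlib 3.10.9 in Python 3.11.15.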

Additional observations from a re-analysis of the deposited data

How the results depend on the processing

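Only 1 library per germ layer exists, so no library could be left out and no test measures the spread between embryos. No paired analysis was possible because each germ layer has 1 library. The count of called genes was 15 for endoderm against mesoderm, 17 for endoderm against epiblast and 15 for mesoderm against epiblast. Without an RPKM minimum these became 23, 28 and 24, and with RPKM above 1 the first and last became 23 and 23. Fold Change above 4 left 9 calls for endoderm against epiblast and 8 for mesoderm against epiblast. In edgeR's exact test with an assumed coefficient of variation of 0.4 the counts were 5, 9 and 6. The other settings kept each count within 1.5 times. Of 650 ratios of single genes under other scalings or with 1 added to RPKM, 641 kept their status, called or not called. A call was lost in 8 and gained in 1. Ratios that were not called could cross 2-fold without a change of status, as Ascl2 did for endoderm to mesoderm with 1 added to RPKM (-2.07 to -0.74). The sign turned in 4 of the 650, none of them for a called ratio: Gatm for endoderm to mesoderm (0.027 to -0.041, upper quartile), Cd81 for endoderm to epiblast (0.080 to -0.053, upper quartile) and Copg2 for endoderm to epiblast (-0.096 to 0.014, with both the median of ratios and TMM). The scalings shifted all ratios by -0.13 to 0.11 on the log2 scale.

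The median log2 ratios by parental copy moved with the genes admitted. With RPKM above 5 they were 0.22, 0.80 and 0.44 for maternally expressed genes (endoderm to mesoderm, endoderm to epiblast, mesoderm to epiblast) and 0.42, 1.85 and 1.38 for paternally expressed genes, the first of which had been -0.42. Without genes whose imprinting is known mainly in certain tissues they were 0.44, 1.84 and 1.42, and -0.87, 0.66 and 1.37. With every gene with a read in both libraries, an alternative chosen after seeing the data, they were 0.027, 0.30 and 0.13, and -0.52, 0.66 and 1.08. Every setting for these medians changed only which genes were admitted.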
